A study of Mus musculus with 2 samples.

Results

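The data concerned 10 immediate early genes of the mouse, Fos, Fosb, Jun, Junb, Egr1, Ier2, Atf3, Dusp1, Zfp36 and Nr4a1, measured in single cells sorted from femurs. The genes were found by symbol, and all 10 were among the 28006 features of the deposited count matrices. Cells were taken as barcodes with at least 1000 detected genes and at most 15% of unique molecular identifiers (UMIs) from mitochondrial genes. This left 7332 cells, 2750 from Mouse #1 and 4582 from Mouse #2. Cells were thus chosen by their gene number and mitochondrial share, and the genes themselves were selected on symbol after Fos and Egr1 had been seen to lead a group of reticular-like cells in an earlier look at these libraries. Their levels and co-variation among reticular-like cells are therefore given as a description. The test within these cells, of their split by the reporter tdTomato, is likewise not independent evidence.

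Both mice carried Cxcl12(GFP/+), Cxcl12-iCreER and R26R(tdTomato/+), received tamoxifen at postnatal day 21 and were analysed at postnatal day 28, so the samples formed 1 group with n = 2, and no untreated or undigested sample was analysed here. The GFP allele reports Cxcl12 expression, and the creER is carried on a bacterial artificial chromosome transgene. Femurs were cut and digested with enzymes, and the sorted cells are labelled GFP+ in one field and tdTomato+ in the extraction field. The paper describes these cells as gated on a GFP-high fraction. Because every cell passed through digestion and sorting, transcript that was present in the bone and transcript induced during handling cannot be told apart.

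Immediate early genes are transcribed within minutes of a stimulus from factors already present in the cell, without new protein synthesis. Fos, Fosb, Jun and Junb encode subunits of the AP-1 transcription factor, Atf3 a related stress-responsive factor, Egr1 a zinc finger factor and Nr4a1 an orphan nuclear receptor. Dusp1 encodes a phosphatase that inactivates MAP kinases, Zfp36 encodes tristetraprolin, which destabilises AU-rich mRNAs, and Ier2 encodes a small nuclear protein. The group is known to respond to growth factors, to mechanical and heat stress, and to enzymatic dissociation of tissue.

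In GRCm38 (mm10) coordinates of GENCODE M21, Fos lay at chr12:85473890-85477273, Fosb at chr7:19302696-19310051, Jun at chr4:95049034-95052222 and Junb at chr8:84974484-84978718. Ier2 lay at chr8:84661331-84662852, Atf3 at chr1:191170296-191218039, Dusp1 at chr17:26505590-26562128, Zfp36 at chr7:28376784-28380253 and Nr4a1 at chr15:101254269-101274795. Exons of Jun overlapped those of the antisense gene Junos, exons of Junb those of Prdx2 and exons of Dusp1 those of Ergic1, each on the opposite strand. The strand setting of the counting is not given in the sources used here, so reads of such overlaps may not be separable.

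The stretches of 150 bases before the start site of 4 members are shown because these genes head the strongest co-variation described here or differ in the class where they were highest. They are RefSeq sequences on GRCm38.p6, written on the gene's own strand, for Fos (chr12:85473740-85473889, plus strand), Jun (chr4:95052223-95052372, minus strand), Junb (chr8:84978749-84978898, minus strand) and Nr4a1 (chr15:101266696-101266845, plus strand). Capitals mark matches to the core TGACG of the cAMP response element (CRE) or to the EGR motif GCGNGGGCG on either strand.
Fos: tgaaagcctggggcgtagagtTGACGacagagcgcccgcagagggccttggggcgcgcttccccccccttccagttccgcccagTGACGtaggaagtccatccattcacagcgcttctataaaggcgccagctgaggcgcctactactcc
Jun: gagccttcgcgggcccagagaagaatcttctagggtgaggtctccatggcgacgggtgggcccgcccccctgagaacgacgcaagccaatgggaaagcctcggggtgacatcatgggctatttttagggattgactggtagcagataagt
Junb: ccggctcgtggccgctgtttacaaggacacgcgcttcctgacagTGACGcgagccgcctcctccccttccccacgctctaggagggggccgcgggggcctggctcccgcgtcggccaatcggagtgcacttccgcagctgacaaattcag
Nr4a1: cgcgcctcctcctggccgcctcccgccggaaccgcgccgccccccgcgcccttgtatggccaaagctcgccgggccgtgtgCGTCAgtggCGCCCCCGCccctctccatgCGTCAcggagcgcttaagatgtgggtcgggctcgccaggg

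Promoters of 8 of the 10 members were in the RefSeq table. Over the 250 bases before the start site, read on both strands, the CRE core TGACG was found in 6 of the 8 (Atf3, Dusp1, Fos, Fosb, Junb and Nr4a1), against 17.8% of 32851 promoters. The full CRE TGACGTCA, which contains the core, was found in Dusp1 alone of the 8, against 1.55% of promoters. The EGR motif was found in Fosb, Nr4a1 and Zfp36 (4.7% of promoters) and a CArG box in Zfp36 (1.47%). The AP-1 motif TGANTCA was found in 0 of the 8 windows, against 6.75% of promoters. These are matches of letters in a short window, with no measurement of binding.

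Classes were built by clustering without the 10 genes and without the related gene lists, and were named from marker genes. Reticular-like cells (1235 and 2399 cells in Mouse #1 and Mouse #2, all 8 of 8 reticular markers raised in each of 3 clusters) were the largest class. One of their clusters was led by Tnfsf11 and the chemokine gene Ccl2, another by Bmp4 and the third by Cxcl9. The other stromal classes were preosteoblast-like (394 and 772 cells), periosteal-like (79 and 240) and osteoblast-like (14 and 62), and there were 151 and 137 endothelial-like cells. Blood classes were neutrophil-like (216 and 232), B cell-like (185 and 188), erythroid-like (114 and 139), pro-B and pre-B-like (49 and 49) and granulocyte progenitor-like (47 and 21). A cluster of 112 and 87 cells raised 6 of 6 monocyte and 6 of 6 macrophage markers and stayed unnamed, and is called the C1qa and Ccr2 cluster. The libraries held 54940400 and 88790688 UMIs, medians per cell were 12967 and 12190 UMIs, and 7 barcodes occurred in both libraries. Barcodes of 1 to 100 UMIs were summed as a measure of free RNA. The eGFP transcript stood at 16.1% and 25.8% of its free RNA level in all blood cells and at 387% and 362% in reticular-like cells. The paper treats the blood cells of this GFP-high sort as contamination, so they need not represent the blood cells of the marrow.

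The 10 genes together made up more of the RNA of reticular-like, periosteal-like and endothelial-like cells than of any blood class. Their summed level in reticular-like cells was 11571 UMIs per 1000000 UMIs of the class (counts scaled to depth, CPM) in Mouse #1 and 8770 CPM in Mouse #2, a mean of 10171 ± 1980 (SD, n = 2). It was 10453 and 6174 CPM in periosteal-like cells (8313 ± 3025) and 8791 and 6778 CPM in endothelial-like cells (7785 ± 1423). These 3 classes followed each other in order of their means, and the ranges of the 2 mice overlapped between each and the next. Preosteoblast-like cells, at 4119 and 4632 CPM, lay below endothelial-like cells in both mice. Osteoblast-like cells had 1711 and 4254 CPM, from 14 cells in Mouse #1.

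Among blood classes the summed level was highest in the C1qa and Ccr2 cluster (2287 and 3050 CPM) and in neutrophil-like cells (2467 and 2401 CPM), whose ranges overlapped. B cell-like cells followed with 2355 and 1344 CPM, below both values of neutrophil-like cells. Pro-B and pre-B-like cells (807 and 836 CPM), granulocyte progenitor-like cells (998 and 594 CPM) and erythroid-like cells (417 and 774 CPM) had the lowest levels. The range of granulocyte progenitor-like cells overlapped those of the other two, and erythroid-like cells lay below pro-B and pre-B-like cells in both mice. All blood cells together had 1592 and 1565 CPM. Exact Poisson 95% intervals of these sums cover counting error only, for example 11519 to 11623 CPM in the reticular-like cells of Mouse #1. The intervals of the 2 mice overlapped in neutrophil-like cells, in pro-B and pre-B-like cells and in all blood cells together.

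**Figure D1:**
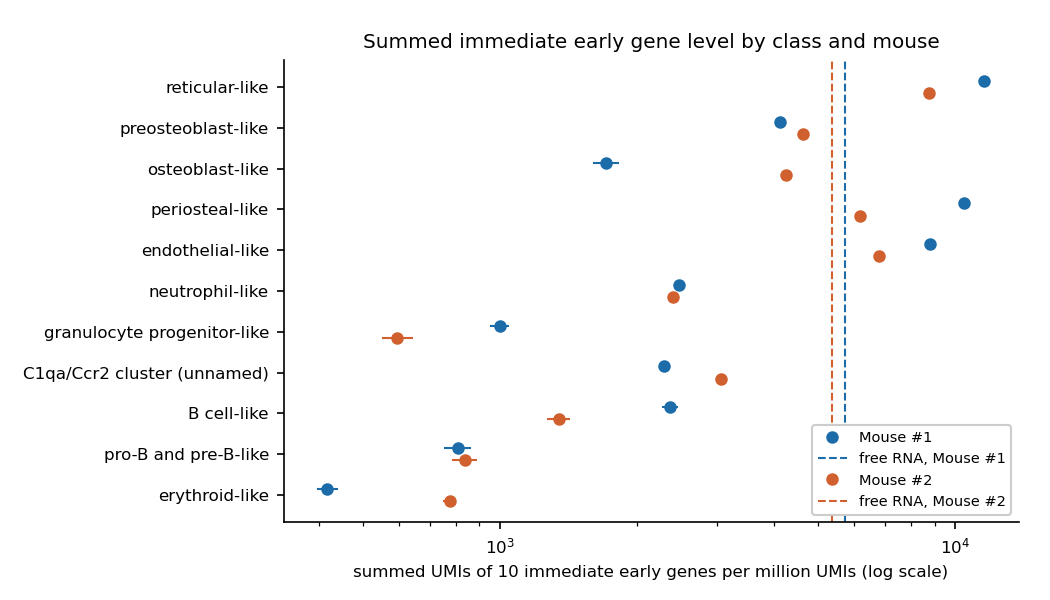
Summed level of the 10 genes (CPM, log axis) in each class, 1 point per mouse with its exact Poisson 95% interval, and the level in free RNA of each mouse as dashed lines. Reticular-like, periosteal-like and endothelial-like cells lie to the right of both lines, and all 6 blood classes lie to the left.

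Free RNA held the 10 genes at 5710 CPM in Mouse #1 and 5352 CPM in Mouse #2, above every blood class. The blood classes reached 7.30% to 57.0% of the free RNA level. Cxcl12, eGFP and the 8 reticular markers together reached 6.66% to 38.6% of their own free RNA level in the same classes. In erythroid-like cells the shares were close, 7.30% and 14.5% for the 10 genes and 7.65% and 14.1% for the reticular transcripts. In neutrophil-like cells they were 43.2% and 44.9% against 31.6% and 27.3%. The part of free RNA in the blood levels was not tested beyond these values.

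Blood cells at or below the median of their class and mouse in reticular transcripts had lower levels of the 10 genes. In neutrophil-like cells the summed level was 1537 and 1576 CPM among such cells, and in B cell-like cells it was 1289 and 1237 CPM. It was 334 and 324 CPM in pro-B and pre-B-like cells and 244 and 284 CPM in erythroid-like cells. In granulocyte progenitor-like cells it was 979 and 186 CPM, from 24 and 11 cells. The C1qa and Ccr2 cluster had 1395 and 1614 CPM. The change was small in granulocyte progenitor-like cells of Mouse #1 (998 CPM over all cells) and in B cell-like cells of Mouse #2 (1344 CPM). Among the cells of each blood class, the level of the 10 genes correlated with that of the reticular transcripts (Pearson r 0.11 to 0.64, a description over cells of 1 library).

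Each gene was described across classes on its own scale, since a 3' count does not compare levels between genes of different length and priming. Fos was highest in reticular-like cells on average, with 2404 and 1518 CPM, and reached 2451 and 906 CPM in periosteal-like cells, so the 2 classes overlapped. It was 1486 and 1128 CPM in endothelial-like cells, below reticular-like cells in each mouse. In neutrophil-like cells Fos was 489 and 710 CPM and in erythroid-like cells 60.4 and 98.4 CPM.

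Jun, a partner of Fos in AP-1, was the member in which reticular-like cells stood furthest from the next class. It was 2607 and 2161 CPM in reticular-like cells and 1825 and 943 CPM in periosteal-like cells, and these ranges did not overlap. Fosb was 1597 and 1139 CPM in reticular-like cells and 1570 and 1132 CPM in periosteal-like cells, nearly equal within each mouse. Junb, which competes with Jun for the same partners, was instead highest in endothelial-like cells at 1841 and 1357 CPM, with 1554 and 1269 CPM in reticular-like cells. Each of these AP-1 genes was lower in every blood class than in reticular-like cells in both mice.

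Egr1 was highest by its mean in reticular-like cells, 1094 and 784 CPM, with 984 and 619 CPM in periosteal-like cells, so these ranges overlapped. Its lowest class was granulocyte progenitor-like, with 3.51 and 3.75 CPM. These low values rested on 6 and 4 UMIs and were 0.64% and 0.71% of the free RNA level. The reticular transcripts stood at 9.90% and 25.1% of theirs in the same cells. Atf3 was highest by its mean in endothelial-like cells, 614 and 350 CPM, with 67.0 and 424 CPM in osteoblast-like cells, above endothelial-like cells in Mouse #2. It was represented by 2 UMIs and 0 UMIs in granulocyte progenitor-like cells. Nr4a1 was highest in periosteal-like cells, 593 and 552 CPM, above 504 and 405 CPM in reticular-like cells. Those 2 ranges did not overlap.

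Of the genes that restrain signalling or mRNA, Dusp1 was highest in endothelial-like cells (784 and 921 CPM), above reticular-like cells (574 and 548 CPM) in both mice. Dusp1 was also the member best retained in erythroid-like cells, at 130 and 132 CPM, which was 37.2% and 33.4% of free RNA. It remained at 116 and 82.1 CPM in the erythroid-like cells low in reticular transcripts, where Egr1 was at 1.03 and 5.47 CPM. Zfp36 was highest in reticular-like cells (645 and 521 CPM) and was at 268 and 241 CPM in B cell-like cells, 78.9% and 79.2% of free RNA. It was 245 and 234 CPM in the B cell-like cells low in reticular transcripts.

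Ier2 varied least between classes by the ratio of the highest to the lowest class mean. It was 496 and 418 CPM in endothelial-like cells, 258 and 201 CPM in reticular-like cells and 193 and 220 CPM in neutrophil-like cells. In granulocyte progenitor-like cells it was 199 and 152 CPM, 95.9% and 104% of the free RNA level, where the other 9 members lay between 0% and 33.3% of theirs. Its lowest class was erythroid-like, with 35.5 and 38.3 CPM.

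**Figure D2:**
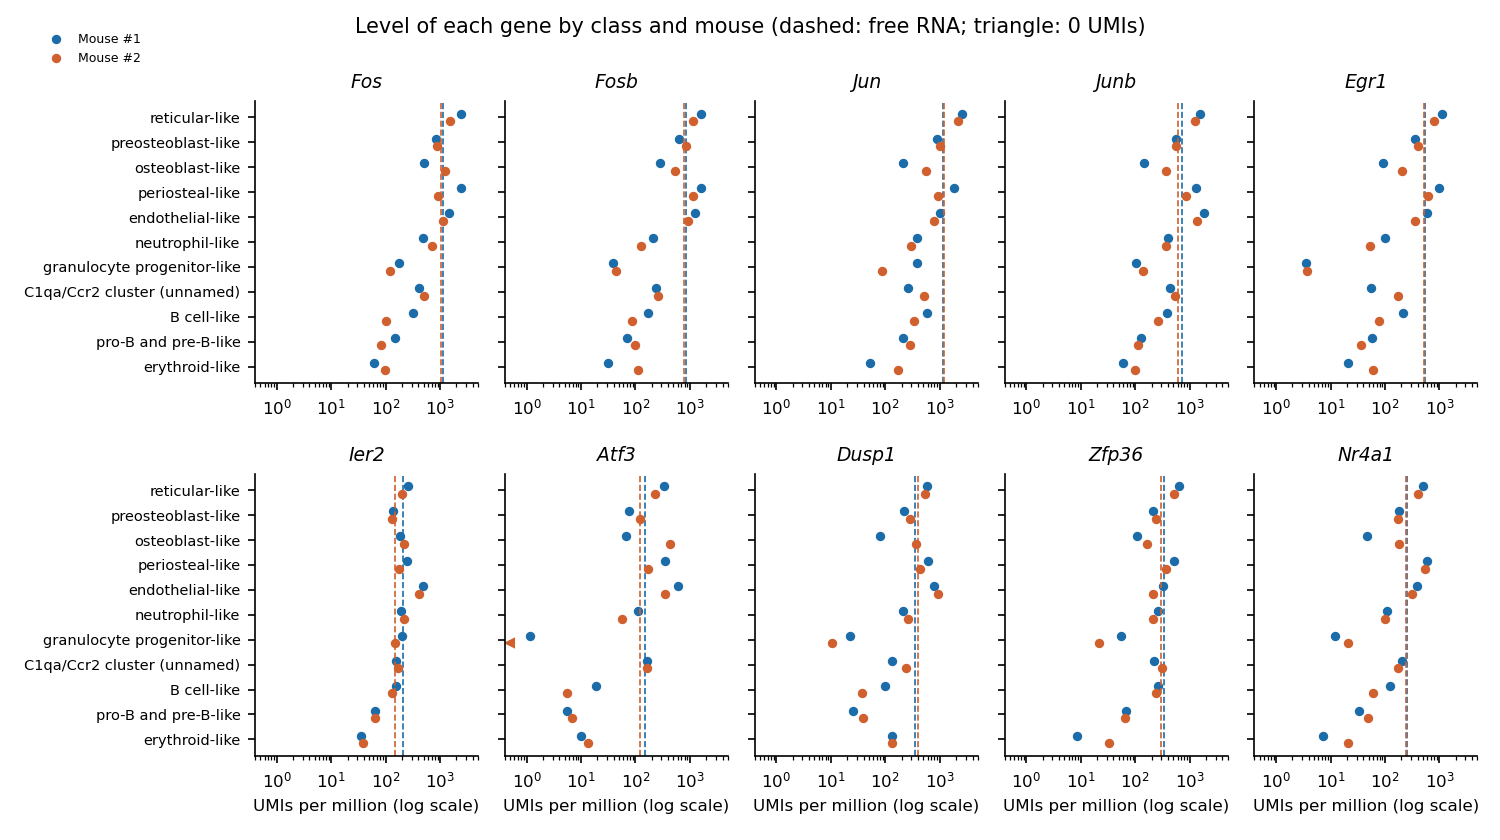
Level of each of the 10 genes (CPM, log axis) in each class, 1 point per mouse, with the free RNA level of each mouse as a dashed line and a triangle for 0 UMIs. Granulocyte progenitor-like cells keep Ier2 near the lines while Egr1 and Atf3 fall to 3.75 CPM or less, and endothelial-like cells have the highest mean of the 2 mice for Junb, Ier2, Atf3 and Dusp1, although osteoblast-like cells lie above them for Atf3 in Mouse #2.

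Class sums were compared with the reticular-like sums of the same 2 mice by edgeR's quasi-likelihood test over 12860 genes, with the Benjamini-Hochberg adjusted p threshold at 0.05. Osteoblast-like cells were left out of the fit, with 14 cells in Mouse #1. The classes come from the same cells and the members were chosen with earlier results known, so the calls describe these 2 mice and are not independent evidence. In preosteoblast-like cells 7 of the 10 genes were lower and 0 higher, where 20.1% of all genes were called and 10.7% were called lower. Junb fell by 1.42 ± 0.23 (SE) on the log2 scale (adjusted p = 0.00053 by edgeR) and Nr4a1 fell by 1.42 ± 0.29 (adjusted p = 0.0025). The 3 members not called were Fos (log2 fold change -1.29, adjusted p = 0.068), Jun (-1.42, adjusted p = 0.075) and Fosb (-0.96, adjusted p = 0.10). With the mouse as a block Fos was also called (-1.23, adjusted p = 0.036), so that 8 were lower beside 12.3% of all genes. In periosteal-like cells 0 of 10 were called, against 17.7% of all genes, 0 had an unadjusted p under 0.05 and DESeq2 also called 0. The log2 fold changes ran from -0.81 (Jun) to 0.31 (Nr4a1).

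Endothelial-like cells differed from reticular-like cells in both directions. Ier2 was higher by 0.84 ± 0.18 (adjusted p = 0.0012 by edgeR), and Jun (-1.55, adjusted p = 0.028), Zfp36 (-1.25, adjusted p = 0.014) and Egr1 (-1.13, adjusted p = 0.044) were lower. These 4 of 10 compare with 43.8% of all genes called, 20% higher and 23.8% lower. The other 6 did not pass, Atf3 and Dusp1 with positive fold changes (0.64 and 0.46) and Fos, Fosb and Nr4a1 with negative ones, while Junb stood at 0.03. Scaling by total UMIs left 2 called, Ier2 higher and Zfp36 lower, beside 43.6% of all genes. With no filter on low counts 8 were called, beside 30% of all genes. Egr1 lost its call under 7 alternatives and Jun under 3, all with the same sign.

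In neutrophil-like cells 6 members were lower (Fosb, Jun, Junb, Egr1, Atf3 and Nr4a1) and Ier2 was called higher by 0.59 ± 0.18 (adjusted p = 0.0091 by edgeR), beside 64% of all genes called, 27.1% higher and 36.9% lower. The direction of Ier2 depended on scaling. With total UMIs in place of TMM its log2 fold change was -0.15 (adjusted p = 0.45), under which the median of all genes moved from -0.26 to -0.99. Relative to the median of all genes Ier2 lay higher under both scalings. Relative to total UMIs the mice disagreed. Ier2 was lower in neutrophil-like than in reticular-like cells of Mouse #1 (192.8 against 258.5 CPM) and higher in Mouse #2 (220.1 against 201 CPM). Atf3 lost its call under 5 alternatives and Junb under 2, with the same sign. Egr1 fell most among the 10, by 2.90 ± 0.46 on the log2 scale (adjusted p = 6e-05). Among neutrophil-like cells low in reticular transcripts 9 members were lower, beside 37.4% of all genes, and Ier2 was not called (0.44, adjusted p = 0.14).

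All 10 members were lower in B cell-like, in pro-B and pre-B-like and in erythroid-like cells, where 54.3%, 64.2% and 70.5% of all genes were called and 33.4%, 35% and 40.7% were lower. Their median log2 fold changes were -2.78, -3.88 and -3.79, beside medians over all genes of -0.29, -0.22 and -0.34. In granulocyte progenitor-like cells 9 were lower and Ier2 was not called (-0.01, adjusted p = 0.99), with 63.8% of all genes called and 34.4% lower. In erythroid-like cells Dusp1 fell least, by 1.38 ± 0.32 (adjusted p = 0.0011 by edgeR), against a log2 fold change of -4.31 ± 0.34 for Nr4a1 (adjusted p = 3.8e-08). The value of Junb in erythroid-like cells shares its locus with Prdx2, an abundant erythroid transcript. In a fit that added the C1qa and Ccr2 cluster, 9 members were lower there (61.7% of all genes called, 31.4% lower) and Atf3 was not called (-0.81, adjusted p = 0.083). With the mouse as a block Atf3 passed as well (-0.79, adjusted p = 0.047), so that 10 were lower beside 32.3% of all genes.

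**Figure D3:**
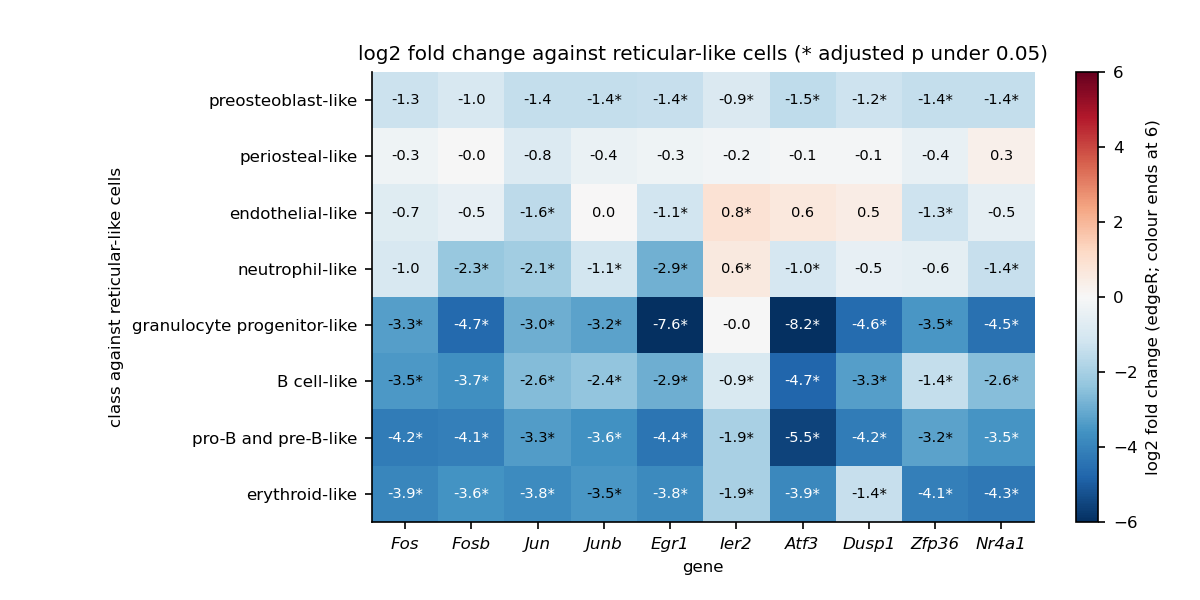
Fitted log2 fold change of each gene (columns) in each class against reticular-like cells (rows), from edgeR on sums of 2 mice, with an asterisk for adjusted p under 0.05. The B lineage and erythroid rows carry an asterisk in all 10 columns and the periosteal-like row in none, and the fitted values of Atf3 and Egr1 in granulocyte progenitor-like cells rest on 10 UMIs or fewer and are no bound.

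The members also varied between the reticular-like clusters. The cluster led by Tnfsf11 and Ccl2 (691 and 1335 cells) had 2151 and 1431 CPM of Fosb, while the cluster led by Bmp4 (500 and 1006 cells) had 702 and 733 CPM. Fos did not follow this split, with 2478 and 978 CPM in the first cluster and 2318 and 2308 CPM in the second. The summed level was higher in the first cluster in Mouse #1 (12930 against 9523 CPM) and lower in it in Mouse #2 (7393 against 10840 CPM). The small cluster led by Cxcl9 (44 and 58 cells, median 3576 and 3508 UMIs) had 3525 and 3616 CPM.

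Reticular-like cells were further divided by tdTomato, the mark left by tamoxifen-induced Cxcl12-iCreER. Positive cells were those whose depth-scaled tdTomato lay above that of 99% of the blood cells in the same library, which gave 496 of 1235 and 967 of 2399 cells. Fos was 2046 and 1404 CPM in positive cells and 2646 and 1594 CPM in negative cells, lower in both mice. Egr1 was 1031 and 718 CPM against 1137 and 827 CPM, and Ier2 237 and 184 CPM against 273 and 213 CPM. Without a mouse term 0 of the 10 genes and 0% of all 12174 genes were called by edgeR, with 467 genes and 0 members at an unadjusted p under 0.05, and DESeq2 called 0 members. With the mouse as a block, the pairing of cells from the same animal, 3 members were lower, beside 5.08% of all genes called and 2.51% lower. These were Fos (-0.25 ± 0.04, adjusted p = 2.3e-05), Ier2 (-0.18 ± 0.05, adjusted p = 0.029) and Egr1 (-0.14 ± 0.04, adjusted p = 0.045). Fos and Egr1 had been seen earlier to lead a group of reticular-like cells in these libraries, so these calls are not independent evidence.

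The levels of the 10 genes differed widely between cells of 1 class. In reticular-like cells the median cell had 67.9 and 58.2 UMIs of the 10 genes per 10000 UMIs. The 10th percentile was 4.42 and 11.4 and the 90th percentile 282 and 204. The tenth of cells with the most member UMIs held 39.4% and 36.7% of them, and 3.24% and 1.63% of cells had none. Endothelial-like cells spread over a similar range, from 5.90 and 15.2 at the 10th percentile to 237 and 148 at the 90th. Erythroid-like cells had medians of 1.30 and 1.77.

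**Figure D4:**
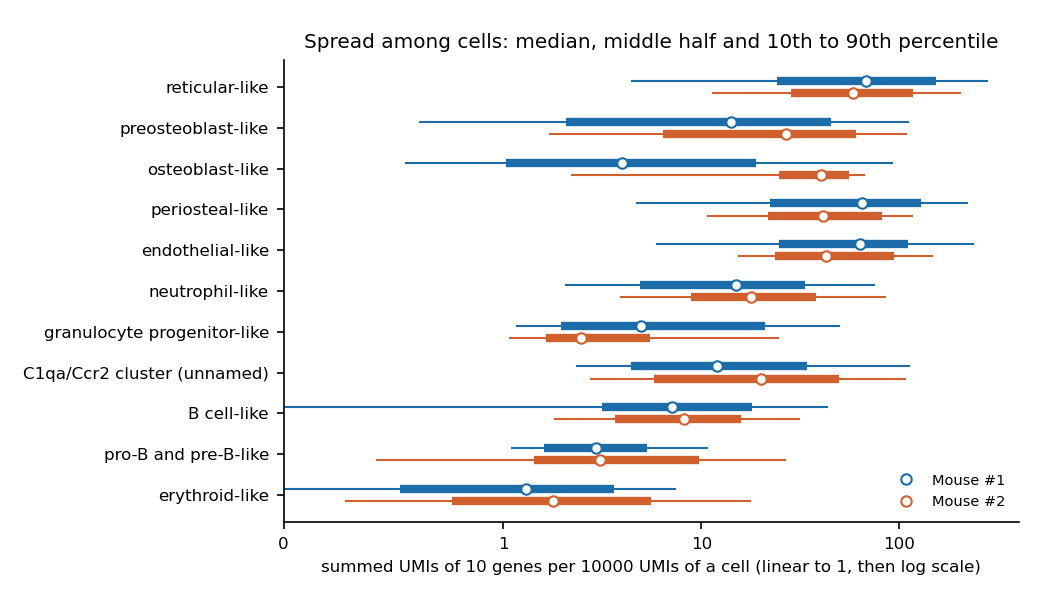
Summed UMIs of the 10 genes per 10000 UMIs of a cell (linear to 1, then log) by class and mouse, with the median as a circle, the interquartile range as a thick line and the 10th to 90th percentile as a thin line. In reticular-like cells of Mouse #1 the thin line runs from 4.42 to 282 around a median of 67.9.

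After each cell was thinned to 2000 UMIs, which left out 6 and 21 shallower cells, the share of reticular-like cells with a Fos UMI was 51.8% (95% Wilson interval 49.03 to 54.6) in Mouse #1 and 49.98% (47.98 to 51.98) in Mouse #2. Before thinning it was 72.4% in both. It was 40.4% and 46.0% in endothelial-like cells and 34.3% and 49.1% in neutrophil-like cells. It was 5.26% and 11.5% in erythroid-like cells (median depth 23809 and 25486 UMIs) and 6.49% and 12.4% in B cell-like cells (4546 and 4072 UMIs), and the part of free RNA in these shares was not tested. In reticular-like cells the highest shares were those of Junb (71.5% and 68.9%), Jun (68.9% and 69.7%) and Fosb (67.1% and 67.7%).

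The 10 genes varied together from cell to cell. In reticular-like cells all 45 of 45 pairs of genes had a positive Pearson r of log(1 + UMIs per 10000) in each mouse, with a median r of 0.55 in Mouse #1 and 0.38 in Mouse #2. Fos with Jun gave the highest lower value of the 2 mice, r = 0.77 and 0.77. Jun with Egr1 (0.76 and 0.75) and Fos with Egr1 (0.75 and 0.75) followed. Fosb correlated less with its relative Fos (0.46 and 0.24, and 0.56 and 0.46 within clusters), and Fosb with Dusp1 was the lowest pair in Mouse #2 (0.40 and 0.19). These are descriptions over cells that share a library and its depth, and the summed level itself correlated with log UMIs at 0.22 and 0.13. After thinning each cell to 2000 UMIs the medians over pairs were 0.39 and 0.26. The members were chosen after Fos and Egr1 had been seen to lead a group of reticular-like cells. Their co-variation there is therefore not independent evidence, and pairs of other genes were not computed.

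Ranked by the lower r of the 2 mice, Fos with Jun also led among preosteoblast-like (0.82 and 0.78) and endothelial-like cells (0.70 and 0.66). Median r over the 45 pairs was 0.59 and 0.50 in preosteoblast-like, 0.62 and 0.35 in periosteal-like and 0.55 and 0.47 in endothelial-like cells. It was lower in neutrophil-like cells (0.40 and 0.23), where the leading pair by the same ranking was Junb with Dusp1 (0.67 and 0.70), and in B cell-like cells (0.27 and 0.11), where it was Junb with Nr4a1 (0.54 and 0.41). Erythroid-like cells had medians of 0.42 and 0.55, which became 0.10 and 0.06 among those low in reticular transcripts. In the C1qa and Ccr2 cluster the medians were 0.53 and 0.51, and 0.50 and 0.49 among cells low in reticular transcripts. The medians over whole classes were taken without thinning, and depth differed between classes. After thinning to equal UMIs, they were 0.38 and 0.29 in preosteoblast-like, 0.34 and 0.22 in periosteal-like and 0.41 and 0.27 in endothelial-like cells. Neutrophil-like cells had 0.29 and 0.19 and B cell-like cells 0.17 and 0.04, still lower than these classes in each mouse. Erythroid-like cells had 0.09 and 0.23, and the C1qa and Ccr2 cluster 0.30 and 0.41.

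**Figure D5:**
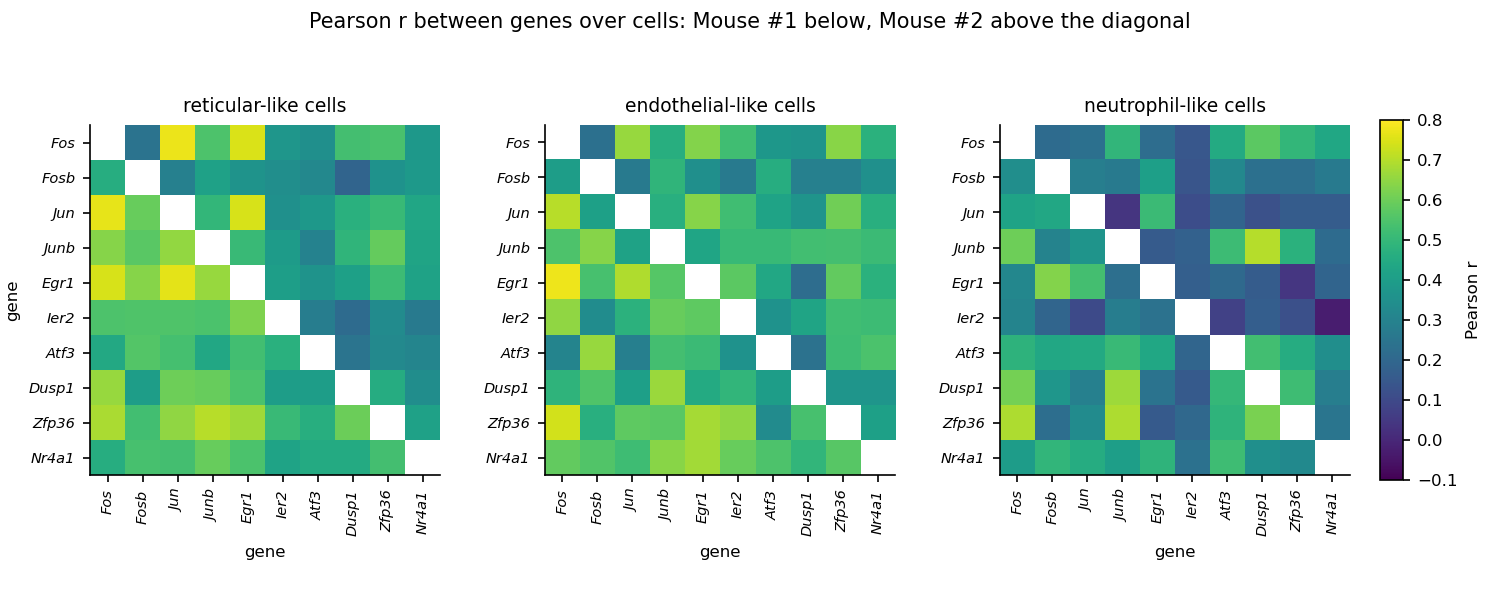
Pearson r between each pair of the 10 genes over cells of 3 classes, with Mouse #1 below and Mouse #2 above the diagonal. The block of Fos, Jun and Egr1 stands out in reticular-like cells (0.75 to 0.77) in both mice, and neutrophil-like cells show Junb with Dusp1 (0.67 and 0.70) instead.

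Outside the 10 members, the genes most like their summed level within reticular-like cells were Btg2, an antiproliferative factor (r = 0.66 and 0.63), and Cyr61, a matricellular protein (0.67 and 0.60). Then came the Krüppel-like factors Klf2 (0.59 and 0.60) and Klf6 (0.65 and 0.58), Hspa8 (0.57 and 0.55), Jund (0.68 and 0.54), Hsp90aa1 (0.51 and 0.50), Ier5 (0.60 and 0.46) and Ppp1r15a (0.59 and 0.45). Hspa8 and Hsp90aa1 encode chaperones of the HSP70 and HSP90 families. All 12 of 12 listed heat shock genes had a positive r in both mice, with medians of 0.30 and 0.38, where the median over 8196 genes was -0.01 in each. The share of all genes positive in both mice was not computed. In endothelial-like cells 11 of 12 heat shock genes were positive in both mice (medians 0.38 and 0.23). In neutrophil-like cells 4 of 7 were (0.07 and 0.02). The lowest values belonged to the matrix and secreted genes Igfbp4 (-0.32 and -0.13), Fstl1 (-0.29 and -0.13), Bgn (-0.29 and -0.13), Col1a2 (-0.27 and -0.11) and Col6a2 (-0.27 and -0.13).

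In endothelial-like cells the nearest genes were Klf4 (0.66 and 0.64), Ppp1r15a (0.63 and 0.62), Hspa1a (0.53 and 0.52), Klf2 (0.47 and 0.48) and Sgk1 (0.47 and 0.46). In neutrophil-like cells they were Btg2 (0.67 and 0.64), Neat1 (0.65 and 0.60), Mcl1 (0.61 and 0.59), Btg1 (0.61 and 0.59) and Cebpb (0.58 and 0.64). The summed level of neutrophil-like cells correlated negatively with log UMIs (-0.40 and -0.49). Across the 22 sums of class and mouse the closest of 11309 genes were Klf6 (Spearman rho 0.95), Midn (0.95), Zswim6 (0.94), Acadsb (0.94) and Bhlhe40 (0.94), where sums of 1 mouse share a library.

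Of the wider list of primary response genes, relatives and regulators, 81 genes were tested. In preosteoblast-like cells 30 were lower and 3 higher, where 10.7% of all genes were lower and 9.43% higher. In erythroid-like cells 66 were lower and 7 higher (40.7% and 29.8% of all genes), and endothelial-like cells had 25 lower and 29 higher (23.8% and 20% of all genes). The 35 other primary response genes split 14 lower and 12 higher in endothelial-like cells and 33 lower and 1 higher in erythroid-like cells, beside the same shares of all genes. Of the 20 kinases and constitutive factors upstream of the members, 1 was lower and 2 higher in preosteoblast-like cells, 5 were lower and 8 higher in neutrophil-like cells (36.9% and 27.1% of all genes) and 11 were lower and 4 higher in erythroid-like cells.

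The genes with the largest fitted fold changes included Egr2, a relative of Egr1, and Dusp8, both at 0 UMIs in granulocyte progenitor-like cells, and Dusp4, at 0 UMIs in pro-B and pre-B-like cells. With a floor of 3 UMIs over the group, Egr2 was at least 20.8-fold lower than in reticular-like cells, Dusp8 at least 7.12-fold and Dusp4 at least 9.42-fold, so their fitted order is not a measured one. Others were higher in blood. Rps6ka1, a kinase downstream of ERK, was 74.5 and 76.8 CPM in neutrophil-like and 0.55 and 0.47 CPM in reticular-like cells. Dusp2, a MAP kinase phosphatase of lymphocytes, was 491 and 525 CPM in B cell-like and 3.12 and 1.13 CPM in reticular-like cells. Ctgf, a matricellular protein, was 905 and 900 CPM in reticular-like cells and rested on 10 UMIs in granulocyte progenitor-like cells.

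The 2 mice did not differ in 1 direction over all classes. The summed level was higher in Mouse #1 by 1.32 times in reticular-like, 1.69 times in periosteal-like, 1.30 times in endothelial-like and 1.75 times in B cell-like cells. It was lower in Mouse #1 in preosteoblast-like cells (ratio 0.89), in the C1qa and Ccr2 cluster (0.75) and in erythroid-like cells (0.54). Neutrophil-like cells gave 1.03, and free RNA 1.07. Over reticular-like cells as a whole all 10 members were higher in Mouse #1 (exact interval of the summed ratio from counting 1.31 to 1.33), but this did not hold in each cluster. All 10 were higher in Mouse #1 in the cluster led by Tnfsf11 and Ccl2, 9 were lower in the cluster led by Bmp4 (Fos was nearly equal) and 6 were lower in the cluster led by Cxcl9. With 1 library per mouse, mouse and library cannot be told apart, and no test was made.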

How the data were processed

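The submitters' notes and headers give Cell Ranger 3.0.0, Seurat and mm10 with added reporter sequences. The authors deposited unfiltered raw UMI counts (10x Chromium 3' v3, 1 library per mouse), with no normalization. The annotation release is not given in the sources used here.

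The members, gene lists and markers were chosen with earlier results of these data known. Scanpy 1.11.5 and leidenalg 0.10.2 clustered log counts on 2000 variable genes, 30 components and resolution 0.5, without the members, the lists, mitochondrial and reporter genes. A class needed at least 3 markers raised 1.5-fold. Scrublet marked 6 and 3 cells (0.218% and 0.0655%), read as a failed caller, so no doublets were removed except in an alternative (60 and 168 highest scores). UMIs were summed per mouse and class (at least 20 cells in each mouse) and tested with edgeR 4.0.16 (TMM, filterByExpr, quasi-likelihood, Benjamini-Hochberg over all genes) in R 4.3.3. The limit was lower for blood classes in the fit of blood cells low in reticular transcripts. Granulocyte progenitor-like cells entered that fit with 24 and 11 cells. SE is the absolute log2 fold change over the root of F. On simulated counts for endothelial-like against reticular-like sums (11990 genes), 91% of 4-fold and 43% of 2-fold changes were recovered. The simulation gave every class the same gene means, changed 200 genes in endothelial-like cells and drew the sums independently of the mouse. In the real contrast 43.8% of all genes were called, so these shares do not give the power of the reported tests. The 2 mice are separate animals, and p-values rest on n = 2.

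Sums of the same mouse come from the same animal. Deviations of class sums from the group means correlated at -0.06 to 0.30 (median 0.11, 19 of 36 pairs above 0.1), and those of tdTomato-positive and tdTomato-negative cells at 0.52. The mouse block was an alternative.

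Levels are CPM of sums with exact Poisson 95% intervals, shares have Wilson 95% intervals, and correlations over cells carry no p. Other named genes followed fixed rules. The list genes were the 6 with the largest absolute log2 fold change among those called in the same direction in at least 2 contrasts and in both mice. The genes most like the members were the 10 highest and 5 lowest in reticular-like cells by the lower r of the 2 mice (detected in at least 10% of cells), the 5 highest in endothelial-like and neutrophil-like cells, and the 5 highest by rho over sums. One gene that met these rules is not reported here. Alternatives changed scaling, filter, test, cell limits, doublets, resolution and thinning. Restricting blood cells to those low in reticular transcripts, adding the C1qa and Ccr2 cluster and keeping 1 reticular-like cluster were chosen after seeing the data.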

Additional observations from a re-analysis of the deposited data

Results flagged for a closer look

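Cells of 2 clusters were placed in no class, entered no comparison and still carried the 10 genes above the limit of 3 UMIs. Osteoblast-like cells were described but entered no fit. A shallow cluster of 88 and 175 cells, with a median of 3255 and 3165 UMIs and no class marker among its leading genes, had a mean summed level of 6028 CPM (6230 and 5826 CPM), near the free RNA level (109% in each mouse). A cluster of 66 and 81 cells led by Acta2 and cell division genes had a mean of 3257 CPM (2278 and 4235 CPM). The floor of 3 UMIs was at most 9.65 CPM in these sums. No group held 4 or more samples, so no test for a sample far from the others was made.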

How the results depend on the processing

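Of 1050 alternative fold changes of single members, 959 kept their direction and side of the threshold, 26 lost their call, 33 gained one and 32 changed sign. Counts of members called stayed within 1.5 times in B cell-like, pro-B and pre-B-like, erythroid-like and granulocyte progenitor-like cells under every alternative that held the class. With the stricter cell limits no B cell-like or granulocyte progenitor-like class entered the fit, so their counts were not assessed there. Pro-B and pre-B-like cells then numbered 104 and 80, so they were not the same set of cells. They left that range in periosteal-like cells with no filter on low counts (1 called, Jun) and in endothelial-like cells, with 2 under total UMIs, 8 with no filter and 2 when reticular-like cells were limited to 1 cluster. The pairing by mouse rests on cells of the same animal: the replicate block raised the members called between tdTomato-positive and tdTomato-negative cells from 0 to 3, added Fos in preosteoblast-like cells and Atf3 in the C1qa and Ccr2 cluster, and changed no other call. Calls were lost for Egr1 in endothelial-like (7 alternatives) and preosteoblast-like cells (5), for Jun in endothelial-like cells (3), for Atf3 (5), Ier2 (3) and Junb (2) in neutrophil-like cells and for Ier2 in B cell-like cells (1), all with the same sign. The cause was not tested for any of these.

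Of the members whose sign changed, Ier2 in neutrophil-like cells was the only one called in the original fit (from 0.59 to -0.15 with total UMIs). In periosteal-like cells DESeq2 size factors and the DESeq2 test gave Fosb 0.13 and 0.13, Ier2 0.0095 and 0.0061, Atf3 0.048 and 0.065 and Dusp1 0.052 and 0.054, while blood cells low in reticular transcripts gave Fosb 0.00041 and reticular-like cells of 1 cluster Dusp1 0.031. Junb in endothelial-like cells became -0.026 with no filter, -0.0045 with 500 genes and 20% mitochondrial UMIs, -0.046 with high doublet scores removed and -0.093 with 1 reticular-like cluster. In neutrophil-like cells the looser cell limits, the removal of doublet scores and resolution 1.0 gave, from -0.50 and -0.57, Dusp1 0.14, 0.14 and 0.098 and Zfp36 0.075, 0.22 and 0.067. In granulocyte progenitor-like cells the DESeq2 test and the same 3 alternatives gave Ier2 0.0015, 0.26, 0.15 and 0.25. Both classes were drawn differently under these 3 alternatives. Neutrophil-like cells numbered 177 and 185, 160 and 182, and 166 and 182, against 216 and 232 in the original fit. Granulocyte progenitor-like cells numbered 92 and 62, 85 and 57, and 91 and 60, against 47 and 21. The part of this change in the sign changes was not tested. Between tdTomato-positive and tdTomato-negative cells, Junb became 0.072 with doublet scores removed and Nr4a1 -0.020 with the looser limits. Dusp1 there became -0.027 with total UMIs, -0.037 and -0.012 with looser and stricter limits, -0.0029 at resolution 1.0 and -0.049 with the tdTomato limit at the 95th percentile.

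The ratio of Mouse #1 to Mouse #2 in reticular-like cells was 1.26 as a median over members, 1.34 and 1.31 with looser and stricter cell limits, 1.31 with doublet scores removed and 1.30 at resolution 1.0. The share of reticular-like cells with a Fos UMI was 72.4% without thinning, against 50.9%. The median pair correlation was 0.32 after thinning, against 0.47. The summed level of all blood cells, 1578 CPM, was 944 CPM in cells low in reticular transcripts, 1486 and 1459 CPM with looser and stricter limits, 1351 CPM without high doublet scores and 1538 CPM with the members kept in clustering. Using 1 mouse alone gave 8770 to 11570 CPM in reticular-like, 6778 to 8791 CPM in endothelial-like and 1565 to 1592 CPM in blood cells, a Fos share of 49.98% to 51.82% and a pair correlation of 0.3824 to 0.5496. With 1 sum per class such fits have no residual degrees of freedom and give no test. The number of mice (n = 2) and, for osteoblast-like and granulocyte progenitor-like cells, few cells limit what depth can resolve.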
